A study of Sus scrofa with 15 samples.

Results

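The 24 positions described here read lower at month 5 than at month 1 in the backfat of both Landrace and Taihu pigs (Sus scrofa) on the 2 two-colour arrays that set those months side by side. They were chosen by that reading, out of 140 distinct printed positions. Backfat is the subcutaneous fat along the back, and the study set a lean type of pig (Landrace) beside a fat type (Taihu) over the first months of growth. There were 10 RNA samples, 1 for each breed at months 1, 2, 3, 4 and 5, and each was hybridised on 3 of the 15 arrays. Within each breed the months formed a loop of 5 arrays, and 5 further arrays set Landrace against Taihu at each month. The labels name no treatment and no genotype beyond the breed, and leave unstated how many animals contributed to each RNA. The spread given below is therefore that between arrays of the same RNA samples, and p-values do not cover differences between animals.

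Backfat in the young pig grows by formation of new fat cells from precursors and by filling of existing ones with triglyceride. Over that growth the tissue shifts from a cell-rich connective tissue with many precursors and blood vessels towards one dominated by lipid-filled adipocytes. Breeds differ in when this filling starts and how far it goes, and lean breeds such as Landrace deposit less fat than Chinese fat breeds such as those of the Taihu group. The deposited files identify each spot by a code for its row of blocks, row and column (Sr01R05C06, for example) and pair no code with a gene, so no function, marker or sequence could be attached to any of the 24.

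The readings that chose the positions ran between -2.63 and -0.33 on the log2 scale on the Landrace array of month 5 over month 1 (median -0.97) and between -1.96 and -0.42 on the Taihu array (median -0.94). The requirement was a value of -0.3 or less on both arrays. Nearest inside it were Sr02R04C09, at -0.35 in Landrace and -0.50 in Taihu, and Sr02R02C07, at -0.33 and -0.42. Nearest outside it were Sr01R10C01, at -0.32 in Landrace and -0.29 in Taihu, and Sr02R09C08, at -0.27 and -0.30. In all, 29 positions met the requirement, and 5 of them were set aside by name: Sr02R09C04 (-3.05 in Landrace, -1.75 in Taihu), Sr02R06C04 (-2.02, -1.24), Sr01R07C02 (-2.20, -1.24), Sr01R05C07 (-3.48, -0.76) and Sr01R06C02 (-2.72, -0.63). Sr01R05C08, also set aside by name, did not meet it (-2.51 in Landrace, 2.10 in Taihu). Because these values defined the 24 positions, they carry no test. They are background-subtracted ratios centred on the array median, whereas all ratios below are normexp-corrected and loess-normalized. On those values 22 of the 24 met the requirement, Sr02R04C09 (-0.24 in Landrace) and Sr01R03C09 (-0.29 in Taihu) being the exceptions. With the median taken over all spots of an array 23 met it, without Sr02R02C07.

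All 24 positions gave readings more than 2 background SDs above background in every copy on every array, with a median net signal of 1573 intensity units (range 436 to 50118), against 1719 for the other 116 positions. Spots at the scanner's ceiling occurred in 5 of the 24, by far the most in Sr01R07C08 (53 of its readings), so that its ratios have limited range. Each position was printed in 4 copies per array, and the SD of the log2 ratio between copies had a median of 0.08 over the 24 positions and 15 arrays and reached 0.84. Median net Cy5 signal was lowest, at 623, on the array of Taihu month 2 against month 3, which also had the most marked spots (9). The array of Taihu month 4 against month 5 had the most spots at the ceiling (46). On it all 4 copies of Sr02R06C03 were at the ceiling in both dyes, and all 4 of Sr02R05C07 in Cy5 (month 4). On the choosing array Sr02R06C03 read only 2221 ± 1705 at Taihu month 5 (SD over 4 copies). Over all positions these 2 arrays were closer. Median net signals were 1531 (Cy3) and 1751 (Cy5) on the array of months 4 and 5, and 1049 and 1306 on the choosing array. Taihu month 4 was still the lowest fitted Taihu month of both positions. Their later Taihu courses thus rest on arrays that gave them unlike signals, and the reason was not tested.

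The other 13 arrays measured the same months without the arrays that chose the positions, and they divided the 24. In a fit of breed and month to those arrays (limma, Benjamini-Hochberg adjustment over 138 positions), month 5 minus month 1 was below 0 in 17 positions and above 0 in 7. Of the 24, 1 was called lower at month 5 (3.62% of all positions tested were) and 7 were called higher (10.1% of all). The median over the 24 was -0.67, beside -0.21 over all positions tested. The 8 calls became 5 with plain background subtraction and median centring together, and 4 or 5 on leaving out any 1 of 6 step arrays (Landrace month 1 against 2 or 3 against 4, or any of the 4 Taihu ones). The reading of a fall was thus not repeated by 7 of the 24 positions. These 2 sets were formed from the fitted values after they were seen, so the counts by set that follow are descriptions of the month change and no evidence for it.

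The design bears on this division. On the 2 arrays that chose the positions, month 5 was in Cy5. On the 8 arrays of single monthly steps the later month was always in Cy3, and on the 5 breed arrays Landrace was always in Cy3. A position that reads higher in Cy3 on every array would come out lower at month 5 on the first 2 arrays. It would come out higher at the later month on each step array and higher in Landrace on each breed array. A position that reads higher in Cy5 would be moved the other way, towards a fall on each step array. Without reversed colours, such a constant dye difference cannot be told apart from a steady monthly change within the 13 arrays.

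**Figure D1:**
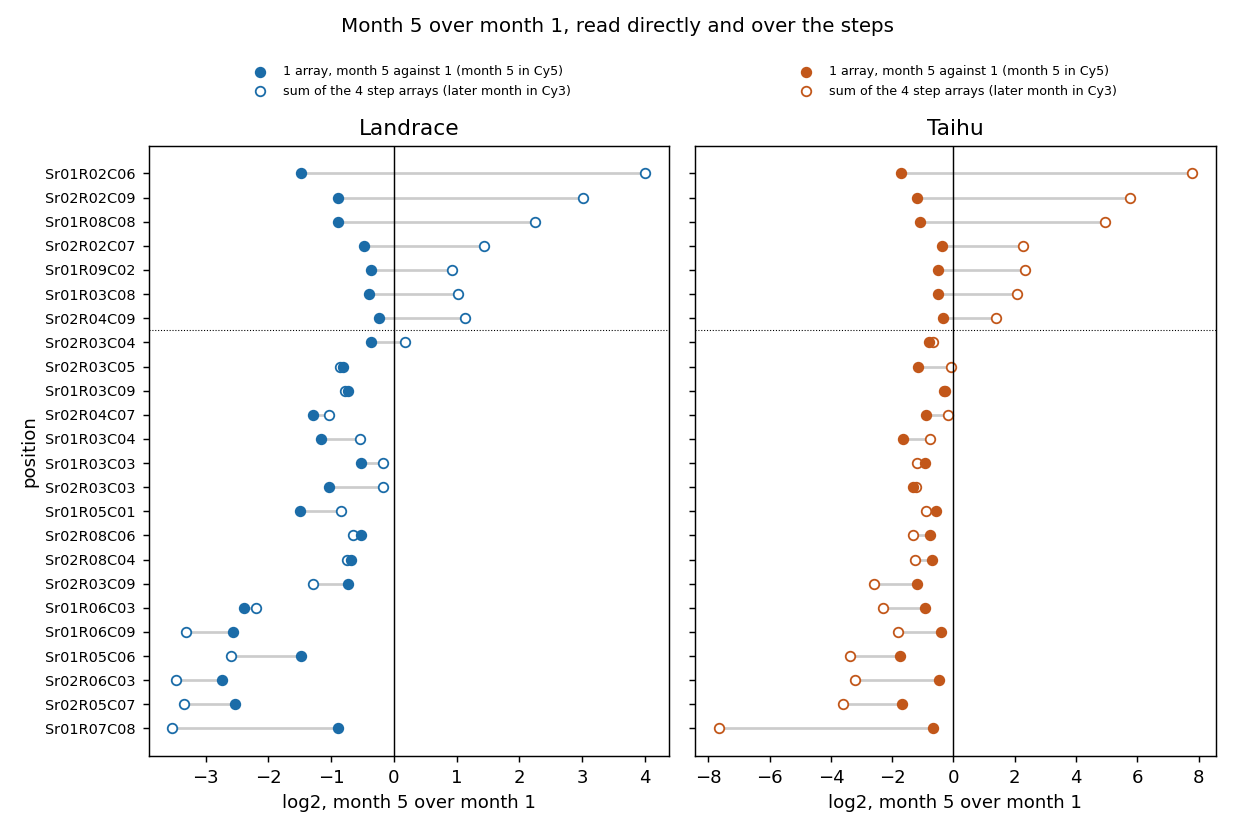
Log2 of month 5 over month 1 for each of the 24 positions (rows, ordered by the fit over 13 arrays), in Landrace (left) and Taihu (right). Filled points are the single array of month 5 against month 1 that chose the positions and open points the sum of the 4 step arrays. Above the dotted line lie the 7 positions whose fit was above 0: their filled points are all below 0 and their open points all above 0, up to 4.01 in Landrace and 7.78 in Taihu.

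The 7 positions above 0 were Sr01R02C06, Sr02R02C09, Sr01R08C08, Sr02R02C07, Sr01R09C02, Sr01R03C08 and Sr02R04C09. Across them, 56 of 56 step ratios (later month over earlier) were above 0, and 34 of 35 Landrace-over-Taihu ratios were above 0. The first 6 of the list were read higher in Cy3 on 13 of 13 arrays, and Sr02R04C09 on 12 of 13. Among all 138 positions tested, 6.52% were higher in Cy3 on all 13 arrays (9 positions, 3 of them outside the 24). With all 15 arrays and a dye term in the fit, which uses the choosing arrays, their month 5 minus month 1 lay between -0.10 and 0.05, and their dye terms (Cy5 over Cy3) between -1.50 and -0.31. In that fit none of the 7 was called, and none had an unadjusted p under 0.05 (limma adjusted p between 0.822 and 0.904).

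Sr01R02C06 had the largest opposition between the arrays. Its log2 ratio of month 5 over month 1 was -1.49 in Landrace and -1.72 in Taihu on the arrays that chose it. Net signal there was 350 ± 17.7 at month 5 and 929 ± 30.1 at month 1 in Landrace, and 444 ± 22.4 at month 5 and 1372 ± 34.5 at month 1 in Taihu (SD over 4 copies). The steps, each later month over the one before, read 0.87, 0.57, 1.28 and 1.29 in Landrace and 2.15, 2.59, 1.38 and 1.66 in Taihu. Every step pointed upwards, against the direct reading. Landrace over Taihu read 1.10, 1.40, 1.56, 1.16 and 2.06 at months 1 to 5, so the Cy3 sample was the higher one here as well. The fitted month 5 minus month 1 over 13 arrays was 5.90 (SE 0.86, limma adjusted p = 0.00192).

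Sr02R02C09 behaved alike at a smaller scale. Month 5 over month 1 read -0.90 in Landrace and -1.18 in Taihu, while the steps read 0.69, 0.69, 0.80 and 0.83 in Landrace and 1.65, 1.90, 1.08 and 1.14 in Taihu. Landrace over Taihu read 0.65, 1.21, 1.02, 0.66 and 1.72 over months 1 to 5, and the fitted change was 4.39 (SE 0.66, limma adjusted p = 0.00203). In Sr01R08C08 the direct readings were -0.90 in Landrace and -1.08 in Taihu. Its steps were 0.46, 0.39, 0.70 and 0.70 in Landrace and 0.95, 1.86, 0.90 and 1.24 in Taihu, with breed ratios of 0.42, 0.97, 0.97, 0.72 and 1.40. The fitted change was 3.61 (SE 0.64, limma adjusted p = 0.00579). In both positions no array showed the Cy5 sample as the higher one.

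Sr02R02C07, a position at the edge of the choosing threshold, read -0.47 in Landrace and -0.38 in Taihu for month 5 over month 1. Its steps were 0.27, 0.30, 0.40 and 0.46 in Landrace and 0.36, 0.79, 0.61 and 0.50 in Taihu, and its breed ratios 0.50, 0.75, 0.41, 0.14 and 0.83. The fitted change was 1.85 (SE 0.35, limma adjusted p = 0.0073). Its values, too, had the Cy3 sample higher on all arrays. Sr01R03C08 read -0.40 in Landrace and -0.50 in Taihu directly, with steps of 0.26, 0.12, 0.35 and 0.30 in Landrace and 0.22, 0.85, 0.42 and 0.57 in Taihu. Its breed ratios were 0.39, 0.78, 0.56, 0.35 and 0.77 and its fitted change 1.54 (SE 0.35, limma adjusted p = 0.0209). Sr01R09C02 and Sr02R04C09 had fitted changes of 1.62 and 1.26 (limma adjusted p = 0.0209 and 0.0261). For these 7 positions the label of a fall between months 1 and 5 is not borne out by the arrays that did not choose them.

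**Figure D2:**
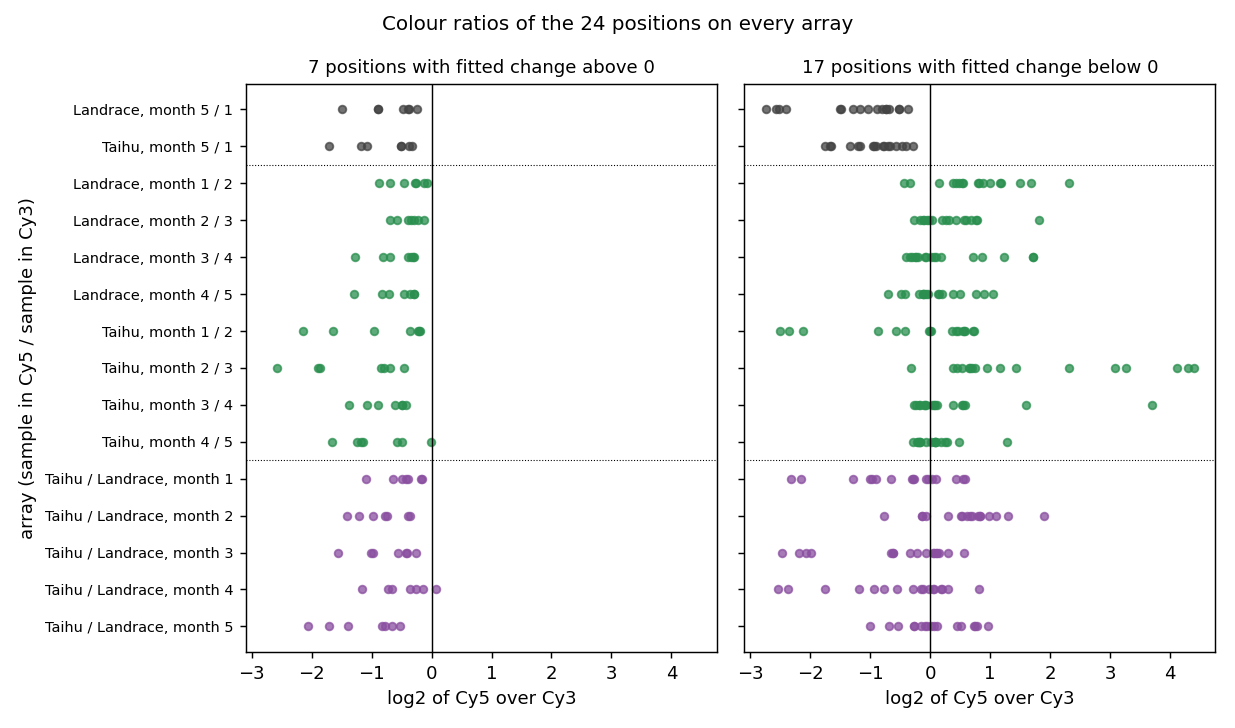
Log2 of Cy5 over Cy3 for the 7 positions with a fitted change above 0 (left) and the 17 below 0 (right) on each of the 15 arrays, named by the sample in Cy5 and then the sample in Cy3. Rows from the top are the 2 arrays that chose the positions, the 8 step arrays and the 5 breed arrays. All points on the left but 1 lie below 0 whatever the samples, whereas those on the right change sides between arrays.

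The other 17 positions were below 0 at month 5 in the fit over 13 arrays as well as on the choosing arrays, where month 5 had the other dye. In order of the fitted month 5 minus month 1 they were Sr01R07C08 (-5.60), Sr02R05C07 (-3.47), Sr02R06C03 (-3.35), Sr01R05C06 (-2.99), Sr01R06C09 (-2.56), Sr01R06C03 (-2.24), Sr02R03C09 (-1.95), Sr02R08C04 (-1.0), Sr02R08C06 (-0.99), Sr01R05C01 (-0.86), Sr02R03C03 (-0.70), Sr01R03C03 (-0.69), Sr01R03C04 (-0.65), Sr02R04C07 (-0.61), Sr01R03C09 (-0.55), Sr02R03C05 (-0.47) and Sr02R03C04 (-0.25). The smallest of these came from a Landrace step sum above 0 and a Taihu step sum below 0. Their dye terms in the fit of all 15 arrays had a median of 0.06 (range -0.15 to 0.96), the highest being that of Sr01R07C08. The sizes listed above hold any constant dye difference of the position. With that term their month 5 minus month 1 lay between -2.37 and -0.51, on data that include the choosing arrays. It was -1.74 in Sr01R07C08, -2.37 in Sr02R05C07 and -1.96 in Sr02R06C03. It was nearer 0 than listed from Sr01R07C08 to Sr02R08C06 and in Sr01R03C09, and further from 0 in the others. Across the 13 other arrays the log2 ratios of pairs of the 17 correlated with a median r of 0.42 (118 of 136 pairs above 0), beside -0.01 over all pairs of tested positions. The 7 positions above 0 had a median r of 0.62 (21 of 21 pairs above 0). Both sets were formed from a fit to these same arrays, which favours a positive r. The points also share arrays and RNA samples, so r is a description and does not set the 17 apart.

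Sr02R08C06 was the only one of the 24 called lower with both breeds in 1 fit. Month 5 over month 1 read -0.52 in Landrace and -0.77 in Taihu on the choosing arrays. Over the steps it read -0.43, -0.32, 0.07 and 0.03 in Landrace and -0.47, -0.67, -0.12 and -0.08 in Taihu. The readings below -0.3 thus lay in the first 2 steps of each breed, and the later ones were near 0. Landrace over Taihu was within 0.16 of 0 at every month (0.06, 0.07, -0.07, 0.16 and -0.02 at months 1 to 5). Its fitted change over 13 arrays was -0.99 (SE 0.23, limma adjusted p = 0.0209). The call was lost with plain background subtraction and median centring together (-1.12, adjusted p = 0.0713) and on leaving out any 1 of 6 step arrays (adjusted p between 0.0519 and 0.0906).

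With a level fitted for each breed and month, which lets the breeds differ, more of the falls passed the test. In Landrace 12 of the 24 positions were lower and 7 higher at month 5 than at month 1 (24.6% and 25.4% of all positions tested). In Taihu 11 were lower and 7 higher (24.6% and 20.3% of all). The 7 higher ones were the same in both breeds and are those read higher in Cy3. Lower in both breeds were 8 positions, and 15 were lower in at least 1. The shares of all positions lower in both breeds or in at least 1 were not counted, so these 2 counts are descriptions. In Taihu the numbers became 6 lower and 7 higher when arrays were centred on the median in place of loess. Leaving out the Taihu array of month 1 against 2 left 2 of the 18 Taihu calls, while leaving out that of month 2 against 3 left 8 and that of month 3 against 4 left 7. Among positions with no reading at the ceiling, Sr01R05C06 had the largest falls, and is named after its values were seen. Its change was -2.80 (SE 0.29, limma adjusted p = 0.00122) in Landrace and -3.17 (SE 0.29, limma adjusted p = 0.000832) in Taihu. On the choosing arrays, with month 5 in the other dye, it read only -1.48 in Landrace and -1.76 in Taihu. With all 15 arrays and a dye term, that term was 0.27 (Cy5 over Cy3) and the change over both breeds -1.89. The size of these falls therefore depends on the dye.

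The Landrace and Taihu RNA samples differed in the month at which most of the 17 positions fell. In Landrace the first step held the largest fall for most of them, whereas in Taihu it was the step between months 2 and 3. On the array of Landrace month 2 over month 1, 15 of the 17 read below 0 (median -0.80), and for 13 of them this was the largest fall of the 4 steps. On the array of Taihu month 2 over month 1 only 9 read below 0 (median -0.02). On the array of Taihu month 3 over month 2, 16 of 17 read below 0 (median -0.95), and this step held the largest fall for 12. The medians over all positions tested were within 0.02 of 0 on each of these arrays. Where the largest fall lay was not counted over all positions tested. These 2 steps also held the most limma calls over the 138 positions in their breed, in either direction (61 in Landrace, 82 in Taihu). Largest falls in these steps thus do not set the 17 apart. For months 4 over 3 and 5 over 4 the medians lay between -0.08 and 0.03 in both breeds, but single positions read as low as -1.72 and -1.05 in Landrace and -3.70 and -1.28 in Taihu at these 2 steps.

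**Figure D3:**
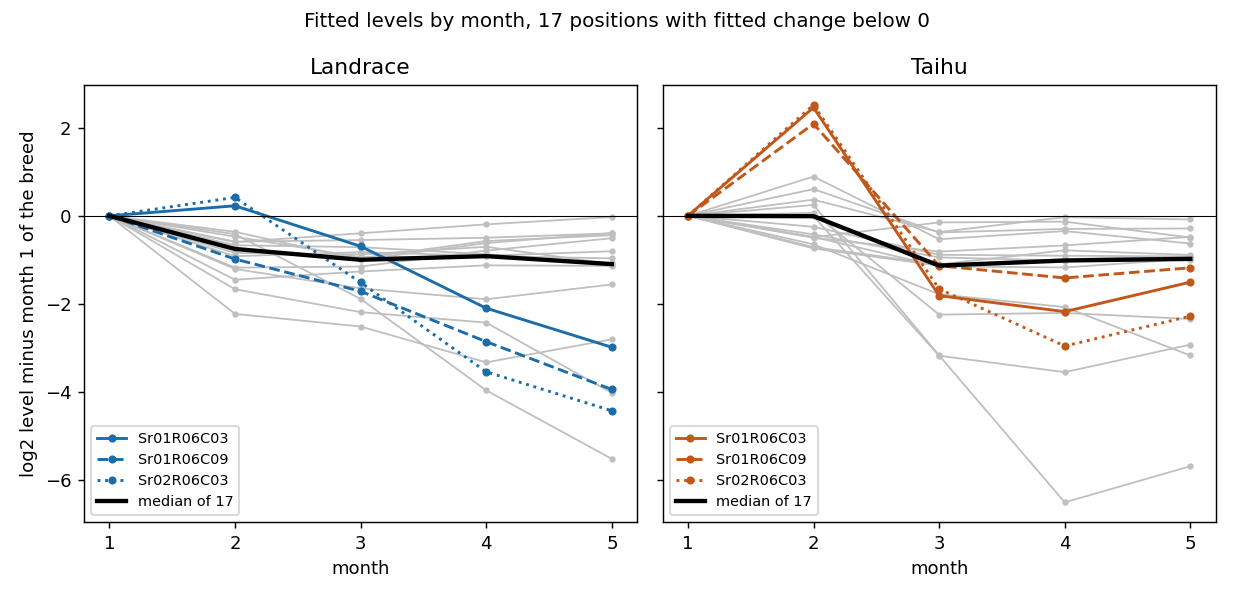
Fitted log2 level at each month minus that of month 1 of the same breed, for the 17 positions with a fitted change below 0, in Landrace (left) and Taihu (right). Each thin line is a position, the heavy line is their median, and coloured lines mark the 3 positions with the largest rise at month 2 in Taihu. The median was -0.75 at month 2 in Landrace and -0.01 in Taihu, and -0.998 in Landrace and -1.13 in Taihu at month 3.

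Tests of the single steps were added after the data were seen. In Landrace 13 of the 24 positions were lower at month 2 than at month 1 and none was higher (limma, 24.6% of all positions tested were lower and 19.6% higher), all 13 among the 17. Between months 2 and 3 in Landrace 3 were lower and 1 higher (11.6% and 9.42% of all). In Taihu 6 were lower and 5 higher at month 2 than at month 1 (16.7% and 18.8%), and 14 were lower and 6 higher at month 3 than at month 2 (32.6% and 26.8%). For month 4 minus month 3, 4 were lower in Landrace and 1 in Taihu (10.1% and 4.35% of all), and for month 5 minus month 4, 2 were lower in Landrace and 1 in Taihu (8.7% and 3.62%). None was called higher at these later steps (3.62% and 1.45% of all in Landrace, 0.725% and 3.62% in Taihu). The later Landrace calls were Sr01R05C06, Sr01R06C03 and Sr02R06C03 at month 4, Sr02R05C07 at month 5 and Sr01R06C09 at both. Of the 24 positions, 11 were lower both at month 2 in Landrace and at month 3 in Taihu. The share of all positions with both calls was not counted, so the 11 do not set the 24 apart. With the breeds in 1 fit none of the 24 was called at any step (0.0%, 0.725%, 0.0% and 0.0% of all positions at the 4 steps in turn). An unadjusted limma p under 0.05, in either direction, was found in 10, 12, 6 and 6 of the 24. Over all 138 positions it was found in 31, 42, 15 and 15. At month 5 minus month 4 all 6 were above 0 and outside the 17. At month 4 minus month 3 the same held for all but Sr01R07C08. For month 3 minus month 2, 10 were called without the Landrace array of those months.

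The difference between the breeds in a step does not hold a constant dye effect, since both breeds carry the later month in Cy3. For month 2 minus month 1, Landrace minus Taihu was below 0 and past the test in 9 of the 24 positions (23.9% of all positions tested) and above 0 in none (20.3% of all), with a median of -1.27 over the 17. For month 3 minus month 2 it was above 0 and past the test in 13 (28.3% of all) and below 0 in none (17.4% of all), with a median of 0.92 over the 17. All of these calls were among the 17. Both contrasts hold the breed difference at month 2, with opposite sign, so they are not separate results. A deviation in the month 2 RNA of 1 breed would move both at once. With 1 RNA sample per breed and month, that was not tested. The Taihu array of month 2 against 3 is the dimmest in Cy5. Without it the 17 had a median of -1.07 for month 3 minus month 2 in Taihu, beside -0.98 with it, and 7 of the 24 were called lower. Without the Landrace array of month 1 against 2, 6 of the 24 were called lower at month 2 in Landrace, and the median of the 17 was -0.91, beside -0.75 with it. Without the Taihu array of month 1 against 2 none of the 24 was called in that step in Taihu (7 had an unadjusted limma p under 0.05).

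Sr02R05C07 showed the shift in timing with a large change, and was picked as an example after its values were seen. Its steps read -1.68, -0.60, -0.02 and -1.05 in Landrace and 0.00, -3.09, -0.59 and 0.08 in Taihu. Landrace read lower from month 2 and Taihu from month 3. Its only readings at the ceiling were those of Taihu month 4 on the array of months 4 and 5, where all 4 copies were, so that Taihu step has a limited range. Net signal on the choosing arrays was 1362 ± 623 at month 5 and 6301 ± 3663 at month 1 in Landrace, and 4228 ± 3081 at month 5 and 9727 ± 7513 at month 1 in Taihu (SD over 4 copies, which differ in brightness more than in ratio). The fall at month 2 in Landrace was -1.67 (SE 0.37, limma adjusted p = 0.0105) and that at month 3 in Taihu -3.17 (SE 0.37, adjusted p = 0.000523). Sr02R03C09 had the same course, with -1.21 at month 2 in Landrace (SE 0.13, limma adjusted p = 0.00051), 0.07 at month 2 in Taihu, and -2.31 for month 3 minus month 2 in Taihu (SE 0.13, adjusted p = 2e-05).

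In 3 of the 17, Sr01R06C03, Sr01R06C09 and Sr02R06C03, the Taihu level rose at month 2 before it fell. Taihu month 2 over month 1 read 2.36, 2.11 and 2.51 in that order, and Taihu month 3 over month 2 read -4.40, -3.27 and -4.30. The Taihu maximum at month 2 was thus followed by a drop to below the month 1 level. All 3 had readings at the ceiling (1, 2 and 11), none of them on these 2 arrays. Without such spots Sr01R06C03 and Sr01R06C09 gave rises of 2.46 and 2.09 (limma adjusted p = 0.000456 and 0.000884), and Sr02R06C03, with all 4 copies at the ceiling on the Taihu array of months 4 and 5, could not be tested. The rises were 2.46 (SE 0.27), 2.09 (SE 0.26) and 2.52 (SE 0.35), with limma adjusted p = 0.000963, 0.00165 and 0.00237. Without the Taihu array of month 1 against 2 the same rises, carried by the other arrays, were 2.75, 2.02 and 2.56, and no longer passed (limma adjusted p between 0.0972 and 0.163). In Landrace the first step read 0.33, -1.01 and 0.43 and the steps after it were all below 0, so the Landrace fall was spread over the later steps, and in Sr01R06C09 over all 4. Sr01R05C01 and Sr01R03C09 also rose at month 2 in Taihu, by 0.89 (SE 0.16, limma adjusted p = 0.00669) and 0.61 (SE 0.10, adjusted p = 0.00419). Without that array these rises were 0.96 and 0.72, and neither passed (limma adjusted p = 0.216 and 0.161). Over the 17 positions the highest month in Landrace was month 1 for 15 and month 2 for 2, and in Taihu month 1 for 9 and month 2 for 8.

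Other positions did not follow this timing. Sr02R03C03 fell at month 2 in both breeds, by -1.18 in Landrace (SE 0.15, limma adjusted p = 0.00106) and by -0.71 in Taihu (SE 0.15, adjusted p = 0.0116). Sr01R03C04 had the reverse order, with a call in Landrace at month 3 (-0.64, SE 0.14, limma adjusted p = 0.0228) and in Taihu at month 2 (-0.74, SE 0.14, adjusted p = 0.00897). In Sr01R07C08 the Taihu step between months 2 and 3 read -4.12, but the direct reading of month 5 over month 1 was only -0.67 in Taihu and -0.88 in Landrace. Its readings at the ceiling limit the size of every one of these ratios.

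Between the breeds, the 17 positions were mostly lower in Landrace at month 2 and mixed or higher in Landrace at months 1, 3 and 4. On the breed arrays the median of Landrace over Taihu was 0.29, -0.67, 0.21, 0.16 and -0.02 at months 1 to 5. At month 2, 13 of the 17 read below 0. This month 2 difference is also part of the 2 breed differences in a step given above, and is no separate result. In the fit of levels 11 of the 24 positions were lower and 6 higher in Landrace at month 2 (limma, 24.6% and 22.5% of all positions tested). The lower ones were all among the 17, and 5 of the 6 higher ones were among the 7 positions with a fitted change above 0. At month 1 the counts were 3 lower and 7 higher (15.9% and 15.2% of all), at month 3 0 lower and 7 higher (9.42% and 16.7%), at month 4 1 lower and 7 higher (8.7% and 15.2%) and at month 5 0 lower and 2 higher (5.07% and 2.9%). Without the breed array of the month in question, at most 4 of the 24 were called at any month.

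**Figure D4:**
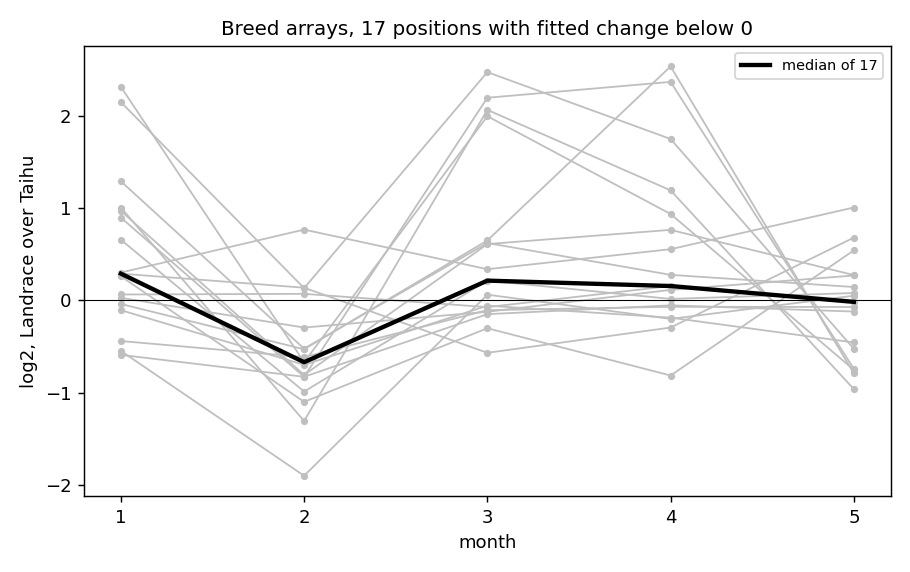
Log2 of Landrace over Taihu on the 5 breed arrays (months 1 to 5) for the 17 positions with a fitted change below 0. Thin lines are positions and the heavy line is their median, which was below 0 at month 2 (-0.67) and above 0 at months 1, 3 and 4.

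Among the 17, breed ratios over 1.5 in size were read in 6 positions. The highest was 2.53 in Sr01R07C08 at month 4, a position with many readings at the ceiling. Sr02R06C03 read 2.15, 0.13, 2.47, 1.75 and -0.52 at months 1 to 5 for Landrace over Taihu, and Sr01R06C09 read 2.31, -0.67, 1.99, 0.94 and -0.75. Sr02R05C07 read 0.90, -0.83, 2.19, 2.37 and -0.74, and Sr01R06C03 1.01, -1.30, 2.06, 1.19 and -0.96. In these 4 the Landrace excess of months 3 and 4 passed the test (limma adjusted p between 0.00302 and 0.032), and at month 5 the sign on the breed array had turned. That turn did not pass in the fit of levels. Landrace minus Taihu at month 5 was -0.01, -0.43, -0.19 and -0.58 in the same order (limma adjusted p between 0.203 and 0.979). Of 6 positions that passed at both months, the other 2, Sr01R05C01 and Sr01R03C04, read above 0 at month 5 as well (0.27 and 1.01). Sr02R03C09 had the lowest Landrace level relative to Taihu at month 2, by -1.86 (SE 0.12, limma adjusted p = 0.000177). Over all months together 6 of the 24 were higher in Landrace and none lower (7.25% and 2.17% of all), namely Sr01R03C04 of the 17 and 5 of the 7 positions that were read higher in Cy3. None of the 24 passed with all 15 arrays and a dye term, or without the breed array of month 2 (3 and 9 had an unadjusted limma p under 0.05).

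Whether the breed difference varied between months was tested directly, a contrast from which a constant dye effect drops out. It did so in 13 of the 24 positions, all among the 17 (limma adjusted p under 0.05). Since 51.4% of all positions tested passed, this share is near the background and sets the 24 positions apart from no others. Month 5 minus month 1 itself differed between Landrace and Taihu in 7 positions, 5 with the lower value in Landrace and 2 with the higher (11.6% and 9.42% of all).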

How the data were processed

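The deposited files hold, per array and dye, the spot intensity and local background, not normalized; per the file headers these are linear values of an image-analysis program, and hybridisation and scanning are not given in the sources used here. Background was corrected with normexp (offset 50) in limma 3.58.1 (R 4.3.3). A loess curve (span 0.3) was then removed from the ratios of each array. The first 12 positions of each block and marked spots (20 of the 8400 other spots over all arrays) had weight 0. Copies (4 per position) were averaged, and 138 of 140 positions had a value on every array. The members and lists were chosen with earlier results of these data known.

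Main fits used the 13 arrays that did not choose the positions. One had a breed term and month terms (8 residual degrees of freedom), the other a level for each breed and month (4). Tests were two-sided at a Benjamini-Hochberg adjusted p of 0.05 over 138 positions, and arrays re-use 10 RNA samples. The fit was tested on simulated data. All 24 positions are named by code; all 15 values are printed for the 6 with the smallest p for month 5 minus month 1, and further examples are marked.

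The value table holds log2 ratios deposited by the authors. Set against the scanner values, they ran as Cy3 over Cy5 (r between -0.91 and -0.74, with blocks taken column by column), with array medians of -0.29 to 0.15, many empty cells and no stated centring. This table, median centring, plain subtraction, a dye term over 15 arrays, no ceiling spots and leaving out each array were the alternatives. The number of arrays limits the precision.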

Additional observations from a re-analysis of the deposited data

Results flagged for a closer look

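In 13 of the 24 positions the difference between Landrace and Taihu varied between months (limma adjusted p under 0.05 over 138 positions), and 51.4% of all positions tested did so. The smallest adjusted p values were those of Sr01R03C09 (0.000579) and Sr02R03C09 (0.000579). Next came Sr01R06C09 (0.00109), Sr01R06C03 (0.00116), Sr01R05C06 (0.00121), Sr01R05C01 (0.00151), Sr02R04C07 (0.00151), Sr02R05C07 (0.00537) and Sr02R06C03 (0.00591). Sr01R03C03 (0.0132), Sr02R03C04 (0.0294), Sr01R07C08 (0.0382, with readings at the ceiling) and Sr02R08C04 (0.0497) lay closer to the threshold.

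The change between months 1 and 5 itself differed between Landrace and Taihu in 7 positions. Landrace minus Taihu of that change was -2.76 in Sr01R06C09, -2.15 in Sr02R06C03, -1.48 in Sr01R06C03, -1.05 in Sr02R04C07 and -0.52 in Sr01R03C09. It was 0.79 in Sr02R03C09 and 0.58 in Sr01R03C03. With 1 RNA sample per breed and month, a difference between breeds and a difference between the animals or extracts behind these samples cannot be told apart.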

How the results depend on the processing

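The 13 arrays re-use 1 RNA sample per breed and month, so no result here has a replicate animal, and a constant dye difference cannot be told apart from a steady monthly change or from a breed difference over all months. No paired analysis was possible because each group is a single array and the labels give no replicate numbers that groups share. Counts are of the 24 positions called. The count for month 5 minus month 1 in both breeds moved from 8 to 5 with plain subtraction and median centring together, to 2 of 6 tested with the deposited values, and to between 4 and 10 on leaving out 1 array. For Landrace it was 4 with the deposited values and 15 to 21 with 1 array left out, and for Taihu 4 and 2 to 20. For month 2 minus month 1 it was 2 with all 15 arrays and a dye term and 0 to 2 with 1 array left out. For month 3 minus month 2 it was 0 to 10 (10 without the Landrace array of month 2 against 3), for month 4 minus month 3 it was 1 with the deposited values, and for month 5 minus month 4 it was 0 to 1 (1 without the Landrace array of month 4 against 5). Landrace minus Taihu over all months gave 0 with the dye term, 0 with the deposited values and 0 to 7 with 1 array left out. The varying breed difference gave 2 with the deposited values and 9 to 17 with 1 array left out. With all 15 arrays and a dye term, month 5 minus month 1 gave 9 lower and 0 higher in both breeds (1 and 7 with the 13 arrays). In Landrace the counts were 17 and 0 (12 and 7), and in Taihu 15 and 0 (11 and 7). That fit includes the choosing arrays, which favours lower calls, so these counts are no evidence of a fall. The share of all positions called in it is not given here. In that fit the sign of month 5 minus month 1 turned in Sr01R02C06 (-0.10), Sr01R08C08 (-0.070), Sr01R03C08 (-0.051) and Sr01R09C02 (-0.026). It stayed above 0 in Sr02R02C09 (0.046), Sr02R02C07 (0.030) and Sr02R04C09 (0.023). All 7 values were near 0 and none was called (limma adjusted p between 0.822 and 0.904), so the turned signs are no falls. The deposited values cover 63 positions. The other causes were not tested.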
